A study of Mus musculus with 73 samples.

Results

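The *Fgf5* promoter library is 1 of 8 libraries of a massively parallel reporter assay (MPRA), in which each plasmid carries 1 promoter, a barcoded reporter and 2 fragments placed downstream of it. Its members are all combinations measured with the *Fgf5* promoter, 9122 of the 110180 combinations of the series. Each fragment is an enhancer or a control of shuffled or random sequence. A control-control (CC) combination holds 2 controls, an enhancer-control (EC) combination holds 1 enhancer and 1 control in either position, and an enhancer-enhancer (EE) combination holds 2 enhancers. The library has 60 CC, 1873 EC and 7189 EE combinations, with 57 enhancers in all. The plasmids were transfected into mouse embryonic stem cells (mESCs) of the E14tg2a line in 3 biological replicates made on different days, and the cells, grown in 2i+LIF medium, were collected after 24 hours. Labels give 6 cDNA, 2 pDNA and 1 inverse PCR samples for this library, and all promoters compared here share the cells, the medium and the collection time. The reporters are plasmids in transiently transfected cells, so they do not carry the chromatin of the native loci. The table holds no endogenous RNA, and the identity of the cells was not checked here.

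*Fgf5* encodes a fibroblast growth factor. It is low in the naive pluripotent state that 2i+LIF maintains, and it rises when the epiblast leaves that state, which has made it a common marker of primed cells. Enhancers of the tested set come from the *Fgf5* locus and from 8 other loci of the pluripotency network, among them *Pou5f1* and *Sox2*, which encode core pluripotency factors, and *Nodal* and *Lefty1*, which encode a signalling ligand and its antagonist. Activity below is the ratio of cDNA to pDNA barcode counts. The boost is the log2 of an activity over the CC baseline of the same replicate.

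The window selected for the promoter spans 450 bp of chromosome 5 (mm10), from 98253809 to 98254258, that is from 375 bp before to 74 bp after the start of the *Fgf5* gene in the RefSeq annotation of GRCm38 (98254184 to 98277033). Promoters and enhancers were amplified with primers placed in the ends of such windows, so the cloned fragments are somewhat shorter than the windows whose coordinates are given. The RefSeq promoter window of 300 bases, on the plus strand, is printed because it lies within the selected promoter window, which all members share. The reverse primer of the promoter covers its last 15 bases and reaches 5 bases past its end. Capitals mark the only match to the motifs that were searched.
Fgf5 promoter window, GRCm38.p6, chr5:98253934-98254233, plus strand: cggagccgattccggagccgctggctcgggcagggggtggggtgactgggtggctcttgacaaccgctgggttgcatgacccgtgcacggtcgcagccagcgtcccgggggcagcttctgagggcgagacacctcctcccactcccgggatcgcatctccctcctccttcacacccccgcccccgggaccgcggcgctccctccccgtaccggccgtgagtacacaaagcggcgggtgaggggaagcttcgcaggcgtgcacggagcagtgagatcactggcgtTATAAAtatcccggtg
The window has a GC content of 68.3%, against a median of 52.7% over 32851 promoter windows of the same length. The capitals spell TATAAA, the letters of a TATA box, 34 bases after the annotated gene start. Windows with TATAAA on either strand make up 13.6% of all promoters. On both strands, 10 other motifs had no match in this window. They were the POU octamer ATGCAAAT (in 1.74% of promoter windows), CATTGT of Sox factors (12.6%), AAGGTCA of Esrrb (4.72%), GGGTGTGG (3.56%) and GGGCGTGG (5.33%) of Klf factors, TTCCNGGAA of Stat3 (1.15%), TAATCC of Otx2 (7.06%), the E-box letters CACGTG (7.15%) and CACCTG (20.2%), and TGAGTCA of AP-1 (5.20%).

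Of the 5 enhancers of the *Fgf5* locus, Fgf5_E036 lies inside the gene, 1522 bp after its start (chr5:98255706-98256155). The others lie beyond the end of the gene and overlap no protein-coding gene. These are Fgf5_E037 (chr5:98293317-98293766), Fgf5_E038 (chr5:98308049-98308498), Fgf5_E039 (chr5:98310488-98310937) and Fgf5_E040 (chr5:98313134-98313583), whose starts are 39133, 53865, 56304 and 58950 bp from the gene start. The strongest single enhancers with this promoter were Pou5f1_E081 (chr17:35503887-35504336), Nodal_E159 (chr10:61415836-61416285) and Klf2_E058 (chr8:72316077-72316526), and none of these overlaps a protein-coding gene. The primers of 3 fragments of the *Fgf5* locus and the 3 strongest fragments follow, each 5′ to 3′, because they set the ends of fragments whose values the results turn on.
Fgf5_E036 forward primer: tttctggaccaccacgttaatcactc
Fgf5_E036 reverse primer: ctgtgcttgaatttccaaaccctcc
Fgf5_E039 forward primer: gtgggaataggtgggagggaatag
Fgf5_E039 reverse primer: cttctctgacaccatttcagctacaac
Fgf5_E040 forward primer: cagagttccacaaagtccagtaattg
Fgf5_E040 reverse primer: attgatcatggtgtctgttcacagtag
Pou5f1_E081 forward primer: attgaatacagacaggactgctggg
Pou5f1_E081 reverse primer: atgaatcttccgtttcctccactctg
Nodal_E159 forward primer: tccttgttccctacactataagcatcc
Nodal_E159 reverse primer: ttgaaccagcggtctcctgc
Klf2_E058 forward primer: cagggccataggttcagacaaag
Klf2_E058 reverse primer: aaggatgtttcaaactaagcctgacag

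The activity of the *Fgf5* promoter was low without enhancers, and many control combinations gave no signal. Of the 60 CC combinations, 11, 10 and 26 were at 0 in replicates 1, 2 and 3, and 37 (61.7%) were at 0 in at least 1 replicate. Of the EC combinations 264 (14.1%) and of the EE combinations 105 (1.46%) were at 0 in at least 1 replicate, and 4 EC combinations were at 0 in all 3. Zeros were thus most frequent in CC and least frequent in EE combinations, and replicate 3 had the most of each type. The library holds 406 of the 491 combinations of the series with a 0. For comparison, 0.905%, 8.25% and 0.882% of the CC combinations of the *Sox2*, *Lefty1* and *Tbx3* libraries had a 0 in at least 1 replicate. Barcode numbers and counts are not in the table, so the depth behind an activity is unknown, and no smallest detectable activity is given.

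The baseline was therefore taken from the 23 CC combinations above 0 in all replicates. Their median activity was 0.182, 0.238 and 0.289 in replicates 1, 2 and 3, a mean log2 activity of -2.11 ± 0.34 (SD, n = 3). Over all 60 CC combinations, zeros included, the median was 0.0952, 0.158 and 0.0431, lower in each replicate. The control E6-shuffled2 is in 35 of the 60 CC combinations and in 11 of the 23 used, but without it the baseline was nearly the same (mean log2 activity of -2.11 from 12 combinations). Boosts depend on this baseline, and differences between enhancers do not. Taken likewise, the mean log2 baselines of the *Sox2*, *Lefty1* and *Tbx3* libraries were lower, at -2.56, -3.49 and -3.09. They used 219 of 221, 378 of 412 and 337 of 340 CC combinations, larger shares than with *Fgf5*. With zeros included, the mean log2 baseline was -3.53 for *Fgf5*, -2.58 for *Sox2*, -3.56 for *Lefty1* and -3.10 for *Tbx3*. *Fgf5* was then below *Sox2* and *Tbx3* and close to *Lefty1*, so the order depends on the zeros. Activities are normalised in each library, and these baselines were not compared by a test.

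**Figure D1:**
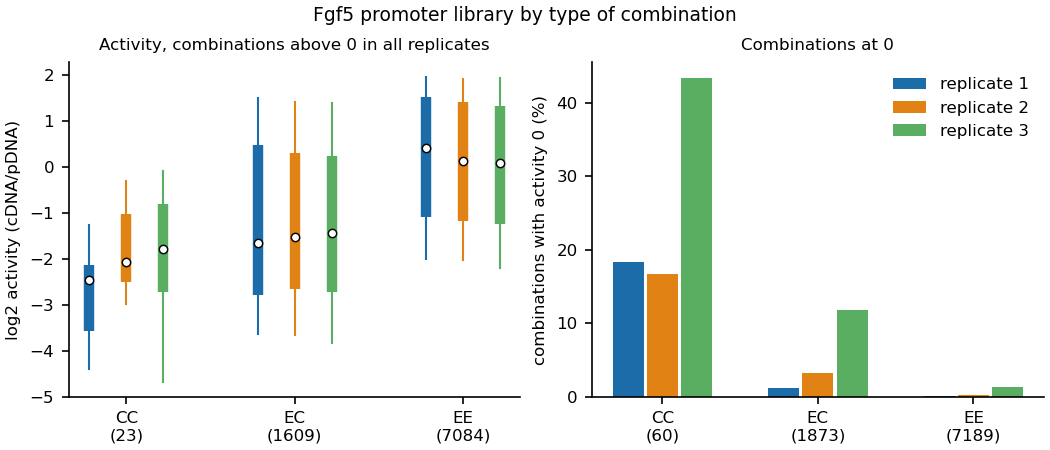
Left, log2 activity (cDNA over pDNA) of the *Fgf5* promoter combinations above 0 in all 3 replicates, by type, with the median (circle), the quartiles (thick line) and the 10th to 90th percentile (thin line) of each replicate. Right, the share of all combinations at 0 in each replicate; 43.3% of the 60 CC combinations are at 0 in replicate 3 against 1.31% of the EE combinations.

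Activities rose from CC over EC to EE combinations in each replicate. The median activity of EC combinations above 0 was 0.318, 0.346 and 0.368 in replicates 1 to 3, and that of EE combinations was 1.33, 1.10 and 1.05. The median boost was 0.81, 0.54 and 0.35 for EC combinations (mean 0.56 ± 0.23, SD, n = 3) and 2.87, 2.20 and 1.86 for EE combinations (mean 2.31 ± 0.51). The medians of the types do not overlap between replicates. With 3 replicates, an exact sign-flip test cannot give a p below 0.25, so none was used here. Of the EE combinations 80.5%, and of the EC combinations 43.1%, were above the baseline in all replicates, while 2.84% and 19.5% were below it in all. With all CC combinations as baseline, zeros included, the mean median boosts were 1.99 and 3.74, still over the EC and EE combinations above 0. The log2 activities of EE combinations correlated between replicates with Pearson's r of 0.834 to 0.903, and those of EC combinations with 0.711 to 0.816.

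Of 47 enhancers with at least 3 usable EC combinations, 21 (44.7%) were above the baseline and 8 (17.0%) below it by limma at an adjusted p below 0.05. Over the enhancer-promoter pairs of all 8 libraries, 88.8% were called above and 2.91% below. The single-enhancer boost ranged from -1.30 to 3.98 with a median of 0.18, and 7 enhancers exceeded 3. In the *Sox2*, *Lefty1* and *Tbx3* libraries, 56 of 56, 55 of 57 and 54 of 57 enhancers were called above, with median boosts of 1.54, 1.37 and 1.41. With the baseline from all CC combinations, zeros included, 34 *Fgf5* enhancers were above and 0 below. That setting still left combinations at 0 out of the enhancer medians. With combinations at 0 kept in the enhancer medians and the main baseline, 20 were above and 11 below. The calls below thus depend on how combinations at 0 are treated. Without replicate 2, limma called 0 below.

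Pou5f1_E081, 1 of 9 fragments of the locus of the pluripotency factor Oct4, was the strongest. Its activity was 3.61, 3.63 and 3.76 over 90 EC combinations, and its boost was 4.31, 3.93 and 3.70 (mean 3.98 ± 0.31, SD, n = 3, 15.8-fold, limma adjusted p = 1.2e-05). Nodal_E159 followed, with an activity of 3.59, 2.96 and 3.21 over 8 combinations and a boost of 3.80 ± 0.44. Klf2_E058, from the locus of a Krüppel-like factor of naive pluripotency, had activities of 3.91, 3.07 and 2.50 and a boost of 3.74 ± 0.66. Pou5f1_E081 was above Nodal_E159 in each replicate, while Klf2_E058 was the highest of the 3 in replicate 1 and the lowest in replicate 3. Their order was not tested.

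Sox2_E180, from the distal control region of *Sox2*, had activities of 2.82, 2.85 and 2.57 and a boost of 3.56 ± 0.40. Nanog_E074, close to the gene of the pluripotency factor Nanog, had activities of 2.49, 2.44 and 1.98 and a boost of 3.30 ± 0.50. Lefty1_E085 reached 3.19 ± 0.44, Otx2_E111 3.06 ± 0.47 and Nanog_E064 2.70 ± 0.42, and the next enhancer, Nanog_E090, 2.49. None of the EC combinations of Pou5f1_E081, Nodal_E159, Sox2_E180, Nanog_E074, Lefty1_E085, Otx2_E111 and Nanog_E064 was at 0, and 1 of 10 of Klf2_E058 was. These 8 enhancers come from 7 loci, *Nanog* alone giving a pair of them. In 20 of the 21 enhancers called above, the boost was highest in replicate 1, which has the lowest baseline.

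**Figure D2:**
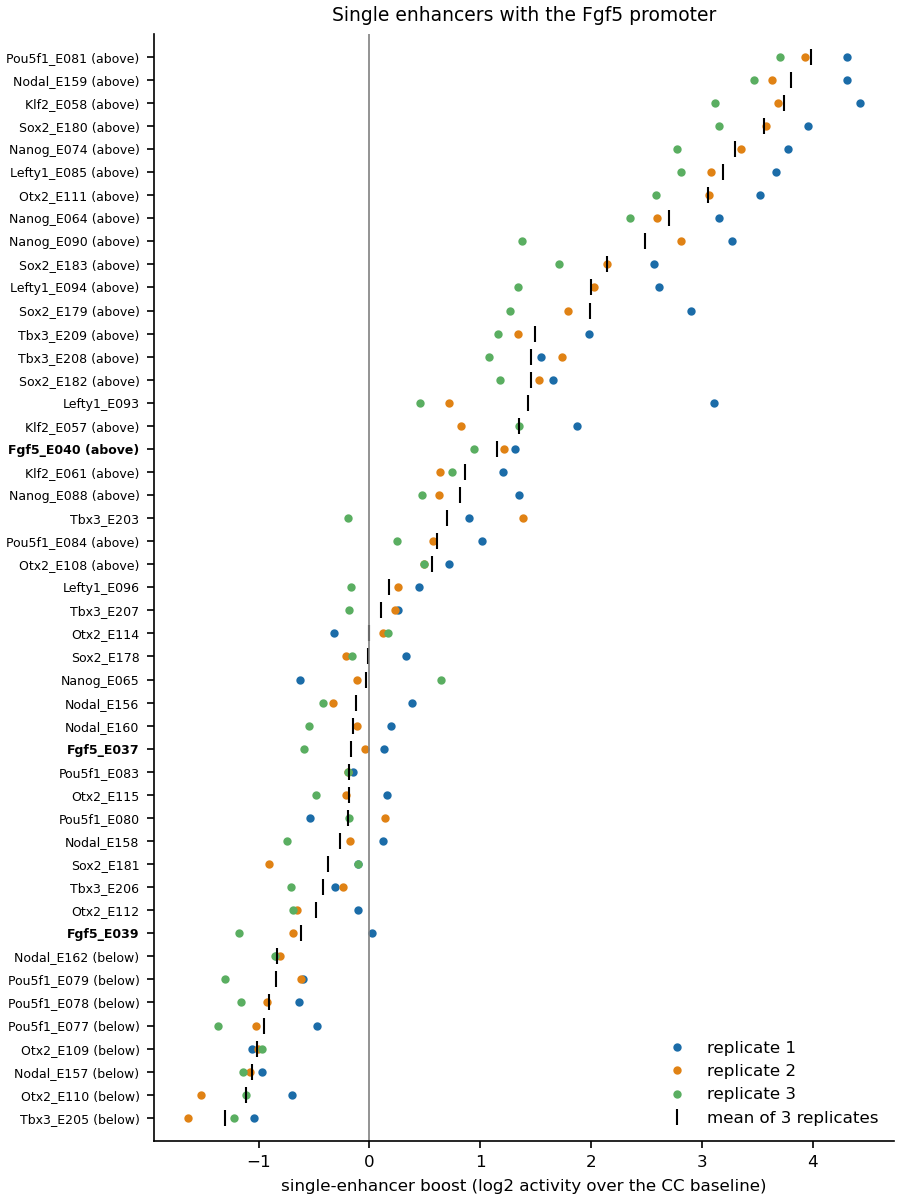
Boost (log2 activity over the CC baseline, x axis) of the 47 tested single enhancers with the *Fgf5* promoter, ordered by the mean of the 3 replicates (bar), with each replicate as a point. Enhancers called above (21) or below (8) the baseline are marked, and the 3 tested enhancers of the *Fgf5* locus are in bold; the highest is Pou5f1_E081 at 3.98 and the lowest Tbx3_E205 at -1.30.

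The lowest were Tbx3_E205 with activities of 0.0882, 0.0765 and 0.124 (boost -1.30 ± 0.31), Otx2_E110 (-1.11 ± 0.41), Nodal_E157 (-1.06 ± 0.09), Otx2_E109 (-1.01 ± 0.04) and Pou5f1_E077 (-0.95 ± 0.45). All 5 passed limma's test below the baseline, with adjusted p of 0.0016, 0.005, 0.0018, 0.0021 and 0.011. In replicate 3 the activities of all 5, between 0.112 and 0.147, were above the median over all CC combinations of that replicate, zeros included (0.0431). In replicate 2 all 5, between 0.0765 and 0.119, were below that median (0.158). In replicate 1, Tbx3_E205, Nodal_E157 and Otx2_E109 were below it (0.0952), and Otx2_E110 and Pou5f1_E077 were above it. The enhancer medians leave out combinations at 0, and this CC median does not. Among the tested enhancers, Sox2_E181 had the highest share of EC combinations at 0 in any replicate, 17 of 27 (63.0%), followed by Nanog_E065 with 5 of 9 (55.6%) and Otx2_E110 with 11 of 26 (42.3%). Sox2_E178, Sox2_E182 and Nodal_E160, further enhancers that the study follows, had boosts of -0.01 ± 0.29, 1.46 ± 0.25 and -0.15 ± 0.37, of which Sox2_E182 alone passed (adjusted p = 0.00076). Lefty1_E093 was uneven, with a boost of 3.11 in replicate 1 against 0.72 and 0.46 in the others, and did not pass (adjusted p = 0.057).

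By locus, all 3 tested enhancers of *Klf2*, 4 of 5 of *Nanog*, 4 of 6 of *Sox2* and 2 of 4 of *Lefty1* were above the baseline. The others were 2 of 7 of *Otx2*, 2 of 7 of *Pou5f1*, 2 of 6 of *Tbx3*, 1 of 3 of *Fgf5* and 1 of 6 of *Nodal*. The calls below the baseline were 3 of *Pou5f1*, 2 of *Otx2*, 2 of *Nodal* and 1 of *Tbx3*. Enhancers whose selected windows overlap could differ widely. The window of Otx2_E111 shares 88 bp with Otx2_E110 and 123 bp with Otx2_E112, whose boosts were -1.11 and -0.48 against its 3.06. That of Nodal_E159 (3.80) shares 100 bp with that of Nodal_E160 (-0.15). The cloned fragments overlap less than their windows. Pou5f1_E078 and Pou5f1_E079, whose windows share 292 bp, had boosts of -0.90 and -0.84, and that of Pou5f1_E077 shares 173 bp with the former, so the sequences behind these 3 calls below the baseline are shared in part.

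The enhancers of its own locus did not rank among the strongest with the *Fgf5* promoter. Fgf5_E040, the most distal, had an activity of 0.451, 0.551 and 0.554 over 28 usable EC combinations and a boost of 1.31, 1.21 and 0.94 (mean 1.15 ± 0.19, SD, n = 3, 2.22-fold, limma adjusted p = 0.0017). Its replicates lie close together and all are above the baseline. Fgf5_E037 had a boost of 0.14, -0.04 and -0.59 (adjusted p = 0.49) and Fgf5_E039 one of 0.03, -0.69 and -1.18 (adjusted p = 0.083), both on either side of the baseline. Of their EC combinations, 7 of 20 and 6 of 26 were at 0 in any replicate, against 1 of 29 for Fgf5_E040. Fgf5_E036 and Fgf5_E038 had too few EC combinations for a test. The 2 usable combinations of Fgf5_E036 gave a boost of 1.35, 0.75 and 1.53, and the only one of Fgf5_E038, with activities of 0.0662, 0.032 and 0.0684, gave -1.46, -2.89 and -2.08.

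Other enhancers with fewer than 5 EC combinations were Klf2_E046 with 1 (activities of 0.0946, 0.218 and 0.265), Lefty1_E095 with 2, both at 0 in at least 1 replicate, Nanog_E071 with 3 and Tbx3_E208 with 3 (boost 1.46, called above). Lefty1_E086, Lefty1_E087, Nanog_E073, Pou5f1_E076 and Pou5f1_E082 had none, and their effect can be seen only in EE combinations.

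Paired with other enhancers, Fgf5_E040 was again the highest of the tested members of the *Fgf5* locus. Over all EE combinations that hold it, Fgf5_E040 had a median boost of 2.68, 2.29 and 1.93 (mean 2.30, 242 combinations), Fgf5_E036 a mean of 1.91 (187), Fgf5_E038 one of 1.36 (69), Fgf5_E037 one of 1.34 (135) and Fgf5_E039 one of 1.24 (324). The SD of the last 3 over replicates, 0.41 to 0.47, includes the shift of the baseline that all enhancers share. Within each replicate, Fgf5_E039 (1.67, 1.19 and 0.86) was below Fgf5_E038 (1.85, 1.32 and 0.92) and Fgf5_E037 (1.75, 1.32 and 0.93). These differences were not tested. Fgf5_E037 was in position 1 in 12 combinations and in position 2 in 152, so its values come mostly from position 2. Combinations of 2 enhancers of the locus, 23 of them usable, had a median boost of 1.91, 1.71 and 1.40 (mean 1.67 ± 0.26), and 20 were above the baseline in all replicates. The highest was Fgf5_E036 with Fgf5_E040, both in minus orientation, with activities of 1.98, 2.09 and 1.91 and a mean boost of 3.10. The lowest was Fgf5_E039 with Fgf5_E037, both in plus orientation, with activities of 0.327, 0.473 and 0.0531 and a mean boost of -0.20.

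Next to a strong enhancer, all locus members gave high activities. Of 32 pairs of a locus member with 1 of the 7 strongest partners, 25 lay above and 7 below the partner alone, by -0.20 to 0.98 (median 0.26). Each pair rests on 1 to 8 combinations, and the highest difference, that of Fgf5_E038 with Sox2_E180, on 1. With Pou5f1_E081, the boosts were 3.99 for Fgf5_E036, 3.79 for Fgf5_E037, 4.34 for Fgf5_E038, 4.02 for Fgf5_E039 and 4.41 for Fgf5_E040, against 3.98 for Pou5f1_E081 alone. With Klf2_E058, whose boost alone was 3.74, Fgf5_E039 gave 3.80 ± 0.49 and Fgf5_E040 gave 4.37 ± 0.27. Over the 7 strongest partners, the pairs with Fgf5_E040 differed from the partner alone by 0.02 to 0.88, the smallest with Nodal_E159 and the largest with Lefty1_E085. Those with Fgf5_E039 differed by -0.18 to 0.30 and were below the partner alone with 3 of 7. The differences from the partner alone were not tested.

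Across enhancers, the EE values followed the single-enhancer values. The median boost over the EE combinations of an enhancer ranged from 0.32 for Nodal_E162 to 4.18 for Pou5f1_E081, and all 57 were above 0. For the 47 tested enhancers, the 2 measures gave a Pearson's r of 0.981 and a Spearman's rho of 0.969, as a description across enhancers that share libraries and partners. Enhancers without a usable single value were spread over this range. Nanog_E073, whose window shares 66 bp with that of Nanog_E074, had an EE boost of 3.77 ± 0.41, and Lefty1_E087 one of 0.46 ± 0.23.

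EE combinations of 2 enhancers called above had a median boost of 4.12, 3.71 and 3.33 (1105 combinations). With 1 enhancer called above and 1 that was not, it was 3.35, 2.73 and 2.42 (3018 combinations). With neither, it was 0.94, 0.53 and 0.21 (1821 combinations), and with both called below -0.13, -0.70 and -0.67 (116). On the log2 scale the difference between the medians with 0 and 1 such enhancers was larger than that between 1 and 2 in each replicate. As activities, the medians were 0.349, 0.343 and 0.335 with 0, 1.85, 1.58 and 1.55 with 1, and 3.16, 3.12 and 2.89 with 2, and there the second difference was the larger in replicates 2 and 3. Pairs of 2 enhancers with a single boost over 3 reached 3.99 ± 0.26 (143 combinations), and pairs of 1 such enhancer with 1 called below the baseline 3.65 ± 0.40 (347).

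**Figure D3:**
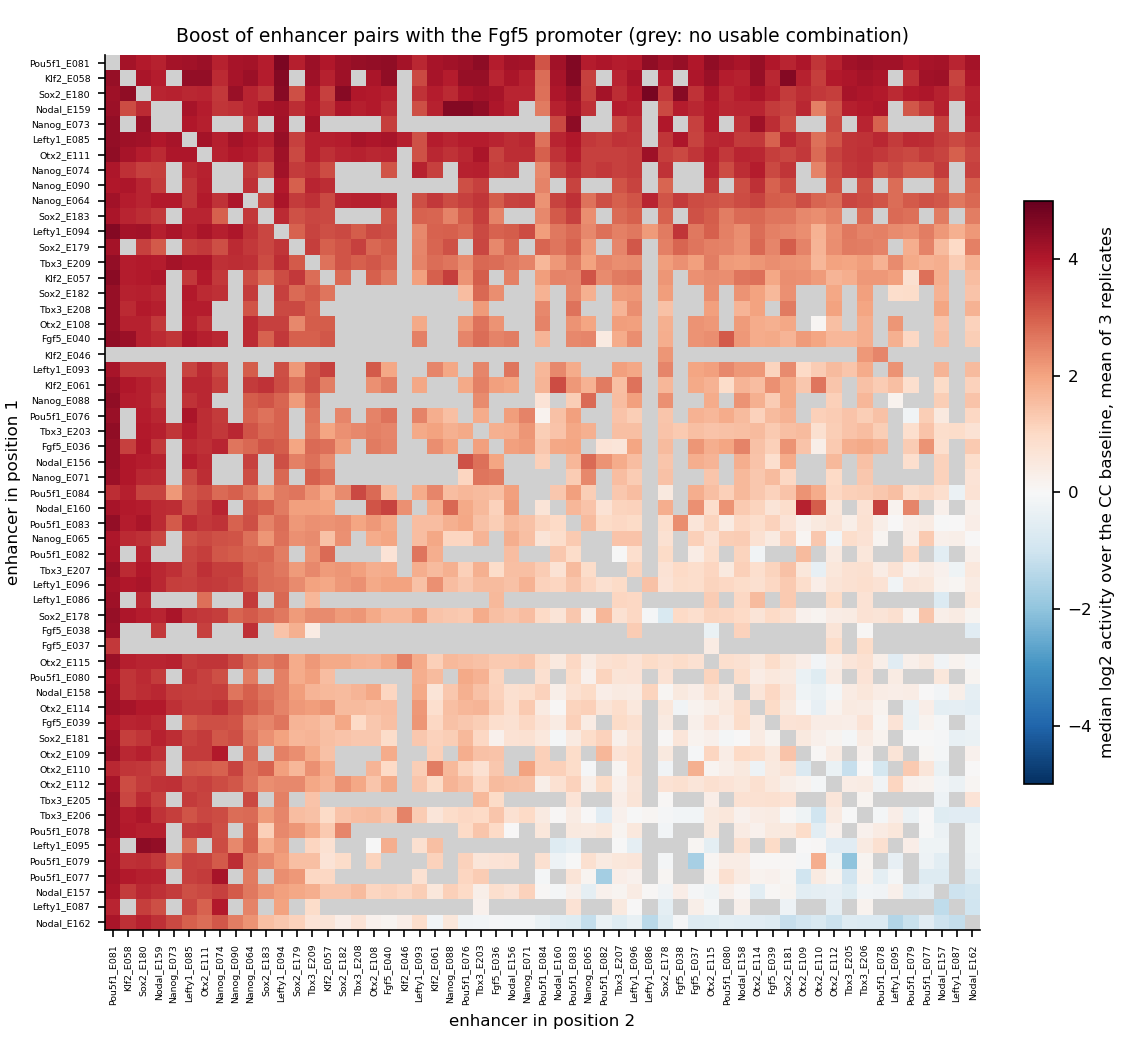
Median boost (log2 activity over the CC baseline, mean of 3 replicates, colour) of each ordered enhancer pair with the *Fgf5* promoter, enhancer in position 1 on the y axis and in position 2 on the x axis, both ordered by EE boost. The rows and columns of the strongest enhancers are high along their whole length, and values below 0 gather where both enhancers are weak; grey pairs had no usable combination.

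The library holds 2412 of 3249 possible ordered pairs (74.2%), 1179 of them in all 4 orientations. The highest pair with at least 2 usable combinations was Pou5f1_E081 in position 1 with Lefty1_E094, with activities of 5.999, 5.96 and 6.18 and a boost of 4.70 ± 0.32 (26.0-fold). In the reverse order it had activities of 6.02, 5.23 and 5.52, and a boost of 4.59 ± 0.41. Pou5f1_E081 with Pou5f1_E083 reached 4.63 ± 0.24, although Pou5f1_E083 alone had a boost of -0.18.

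Klf2_E058 in position 1 gave 4.59 ± 0.43 with Pou5f1_E083, 4.59 ± 0.57 with Sox2_E181 and 4.58 ± 0.45 with Lefty1_E094. Sox2_E180 with Lefty1_E094 (4.55 ± 0.24) and Klf2_E057 with Pou5f1_E081 (4.52 ± 0.40) complete the 8 highest, and the next was Pou5f1_E081 with Tbx3_E203 (4.49). The order within these pairs was not tested, and their SD over replicates includes the shift of the baseline that all share. The highest of the 8 was a different pair in each replicate. All 8 hold Pou5f1_E081, Klf2_E058 or Sox2_E180, and 4 hold Lefty1_E094, which alone had a boost of 1.99.

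The 3 lowest were Nodal_E162 with Lefty1_E095 (-1.46 ± 1.21), Lefty1_E087 with Nodal_E157 (-1.26 ± 0.57) and Nodal_E162 with Nanog_E065 (-1.19 ± 0.54), with activities between 0.0351 and 0.162. For 1113 pairs measured in both orders, the boosts of the orders differed by a median of 0.29 and correlated with Pearson's r of 0.934.

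The expected additive activity of a pair is the activity of the first enhancer in position 1 plus that of the second in position 2 minus the baseline. It asks whether 2 enhancers add up on this promoter. In the *Fgf5* library, 39 of 45 enhancers (86.7%) were above this expectation over their pairs and 1 (2.22%) was below by limma at an adjusted p below 0.05. Over all 8 libraries 47.7% were above and 21.4% below, and in the *Sox2*, *Lefty1* and *Tbx3* libraries 42 of 56, 46 of 57 and 46 of 57 were above. The median log2 of observed over expected was 0.63 over the *Fgf5* enhancers and 0.23, 0.24 and 0.27 in the *Sox2*, *Lefty1* and *Tbx3* libraries, a difference that was not tested. Leaving the baseline out of the expectation gave 9 above and 6 below, and the baseline from all CC combinations gave 19 above and 1 below. The size of the excess therefore moves with the baseline, which rests on 23 CC combinations for this promoter.

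The enhancers with the largest excess were weak ones, whose measured activities enter the expectation. Pou5f1_E083 was at 1.13, 1.09 and 1.00 (mean 1.08 ± 0.10, SE, adjusted p = 1.6e-05), Nodal_E156 at 0.96, 1.01 and 1.11 (mean 1.03), Otx2_E108 at 1.29, 0.85 and 0.92 (mean 1.02) and Otx2_E115 at 0.80, 0.97 and 1.17 (mean 0.98). Their single boosts were -0.18, -0.12, 0.57 and -0.18. The strongest single enhancers were at the other end. Nodal_E159 was below the expectation with -0.37, -0.07 and -0.44 (mean -0.29 ± 0.11, SE, adjusted p = 0.046), a call that leaving out replicate 1 or replicate 3 ended (adjusted p = 0.27 and 0.11). Its value covers only pairs with it in position 2, where its single activity rests on 7 EC combinations. In position 1 it had too few for an expectation. Klf2_E058 (-0.06), Nanog_E074 (-0.02), Pou5f1_E081 (0.10) and Sox2_E180 (0.10) did not pass.

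**Figure D4:**
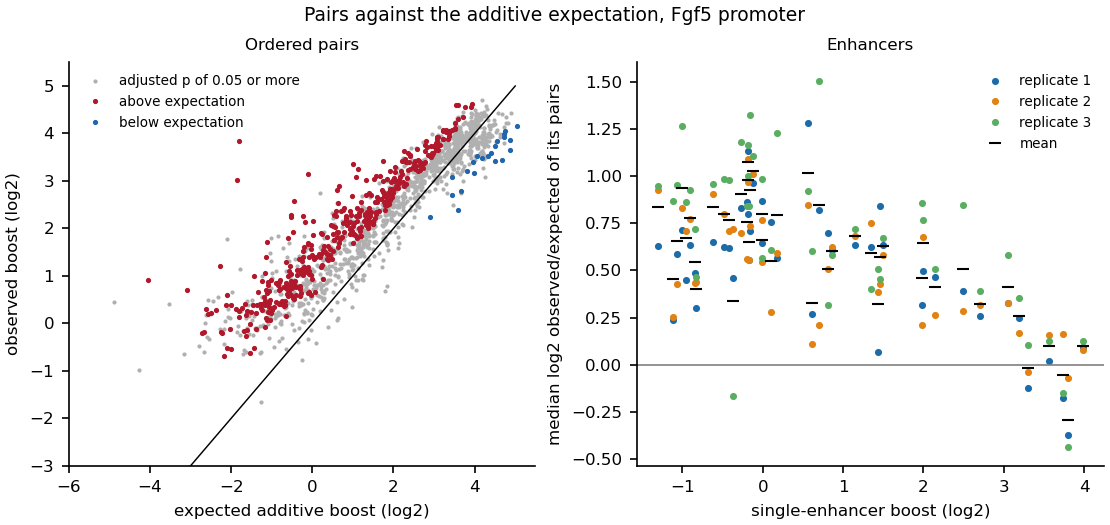
Left, observed boost against the expected additive boost (log2, mean of 3 replicates) of 1565 ordered pairs, with the line of equality and the pairs called above (404) and below (22) the expectation. Right, the median log2 of observed over expected activity of the pairs of each enhancer in each replicate against its single-enhancer boost; the mean is highest for the weak enhancer Pou5f1_E083 (1.08) and lowest for Nodal_E159 (-0.29).

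By ordered pair, 404 of 1565 (25.8%) were above the expectation and 22 (1.41%) below, against 23.6% and 12.6% over the pairs of all libraries. In the *Sox2*, *Lefty1* and *Tbx3* libraries 37.1%, 44.1% and 45.2% were above, larger shares than with *Fgf5*. A further 2007 EE combinations had no usable expectation in at least 1 replicate. The deviation divides by the expected activity, so a split by that value, or by the strength of an enhancer, fixes part of the trend in advance, and it is given as a description. Where the expected boost was 0 or less, the median deviation was 1.40 with 156 of 339 pairs above. Between 0 and 2 it was 0.71 with 154 of 487, and over 2 it was 0.27 with 94 of 739. All 22 pairs below the expectation had an expected boost over 2 and hold 1 of the 8 strongest enhancers, as do 575 (36.7%) of all tested pairs. The observed activity correlated with the additive expectation with r of 0.913, 0.879 and 0.786 and with the multiplicative one with 0.853, 0.845 and 0.760 over the same 5077 combinations. Without replicate 1 the count above was 72 and without replicate 2 it was 35.

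The largest excess among pairs with 2 or more combinations was that of Fgf5_E039 with Otx2_E109. Their activities of 0.326, 0.304 and 0.547 were near the baseline and the expected boost was -3.08, so the mean log2 deviation of 3.73 (limma adjusted p = 0.021) was taken against a very low expected activity. Pou5f1_E078 with Otx2_E112 (deviation 2.77, expected boost -2.57) and Otx2_E109 with Nodal_E162 (2.71 and -2.50) were alike in this. Nodal_E160 with Fgf5_E037 had activities of 0.989, 1.06 and 1.38, a boost of 2.28 and a deviation of 1.82, 2.25 and 4.09 (mean 2.72, adjusted p = 0.029).

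The 4 pairs furthest below the expectation all had Nanog_E074 in position 1. With Nodal_E159 the activities were 1.93, 2.95 and 2.84 and the deviation -1.74, -0.93 and -1.04 (mean -1.24 ± 0.23, SE, adjusted p = 0.026). With Klf2_E058 the mean was -1.23, with Pou5f1_E084 -1.19 and with Sox2_E180 -1.10. The boosts of these pairs were 3.45, 3.65, 2.39 and 3.41, against 3.30 for Nanog_E074 alone. The partners alone had boosts of 3.80, 3.74, 0.61 and 3.56, so 3 of the 4 pairs lay below the partner. Nanog_E074 was in position 1 in 8 of the 22 pairs called below and in position 2 in 2, with a median deviation of -0.15 over 38 pairs and 0.13 over 37 pairs in these positions.

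The position of an enhancer next to a control gave few calls. For 42 enhancers with both positions, limma called 0 higher in position 2, with 0 at an unadjusted p under 0.05, and 3 (7.14%) higher in position 1. Over all 8 libraries 24.9% and 27.5% were called. Klf2_E061 had activities of 0.591, 0.494 and 0.603 in position 1 and 0.339, 0.242 and 0.359 in position 2 (log2 difference -0.86 ± 0.17, SE, adjusted p = 0.017), which do not overlap. Sox2_E179 (-1.36 ± 0.29) and Klf2_E057 (-1.31 ± 0.31) rested on 3 to 6 combinations in each position. For orientation, 0 of 29 enhancers were higher in minus orientation, with 1 at an unadjusted p under 0.05, and 2 were higher in plus orientation, Tbx3_E203 (-0.96 ± 0.18) and Otx2_E112 (-0.67 ± 0.16). Over all libraries 27.3% and 26.8% were called. The calls of Tbx3_E203 and Otx2_E112 rest on position 2 alone. There Tbx3_E203 had 3 combinations in each orientation, and Otx2_E112 had 26 in plus and 17 in minus. The *Fgf5* library has 1873 EC combinations against 4142 to 5840 in the *Sox2*, *Lefty1* and *Tbx3* libraries. What part this has in the low counts of calls was not tested.

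The enhancers were then compared with those in the *Sox2*, *Lefty1* and *Tbx3* libraries, which also have low baselines (as activities normalised in each library), over the 1551 EC and 6152 EE combinations above 0 in all 4. The relative boost is the boost minus the median of the shared enhancers in the same replicate, so it does not use the baselines. Of 47 single enhancers, limma called 8 higher (17.0%) and 3 lower (6.38%) with *Fgf5*. Nodal_E159 was at 3.86, 3.35 and 3.40 with *Fgf5* and between 2.20 and 3.20 in the other 9 replicates, without overlap (difference 0.82 ± 0.16, SE, adjusted p = 0.0093). Sox2_E182 (0.57 ± 0.12) and Pou5f1_E081 (0.55 ± 0.15) also did not overlap. Nodal_E159 rested on 8 shared EC combinations, Sox2_E182 on 7 and Pou5f1_E081 on 90. Nanog_E074 (0.55), Sox2_E180 (0.53), Tbx3_E207 (0.51) and Nanog_E064 (0.49) were higher with an overlap of replicates.

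Fgf5_E040 was the only enhancer of the *Fgf5* locus among these calls. Its relative boost was 0.88, 0.93 and 0.89 with *Fgf5*, and the means were 0.80 with *Sox2*, 0.24 with *Lefty1* and 0.24 with *Tbx3* (difference 0.47 ± 0.12, adjusted p = 0.016). It was thus separated from *Lefty1* and *Tbx3*, while the *Sox2* mean was close. Fgf5_E037 (0.38, adjusted p = 0.078) and Fgf5_E039 (-0.50, adjusted p = 0.056) did not pass. Lower with *Fgf5* were Tbx3_E205 (-0.81 ± 0.18) and Otx2_E109 (-0.56 ± 0.14), without overlap, and Nodal_E156 (-0.52 ± 0.15). They rested on few shared EC combinations, 6 for Tbx3_E205, 11 for Otx2_E109 and 9 for Nodal_E156.

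In pairs, 11 of 57 enhancers (19.3%) were higher and 0 lower (0%, with 4 lower at an unadjusted p under 0.05 by limma). Sox2_E180 was at 2.08, 2.30 and 2.17 with *Fgf5* and between 1.30 and 2.25 with the others (difference 0.42 ± 0.11, SE, adjusted p = 0.021). Nodal_E159 (0.40), Nanog_E074 (0.38), Pou5f1_E081 (0.38) and Klf2_E058 (0.37) followed, then Sox2_E179, Pou5f1_E084 and Tbx3_E209 (each 0.26), Nanog_E064 and Otx2_E111 (each 0.22) and Sox2_E183 (0.20). Pou5f1_E081, Klf2_E058 and Pou5f1_E084 did not overlap between the groups. For all 11 the *Fgf5* mean was above the mean of each other promoter, at times narrowly. Otx2_E111 was at 1.95 with *Fgf5* and 1.93 with *Lefty1*, and Sox2_E180 at 2.18 and 2.09. Klf2_E058 was at 2.30 with *Fgf5* and at most 2.10 in the mean of another promoter. All 11 were above the baseline as single enhancers, as were 21 of all 47 tested (44.7%). Of the 11, 5 were also among the 8 single-enhancer calls, which make up 17.0% of 47. The 2 comparisons are not independent, as they use the same libraries and centred values. Centred values of strong enhancers lie higher where a promoter has a wider range. No enhancer of the *Fgf5* locus passed in pairs, where Fgf5_E040 differed by 0.10 ± 0.06 (adjusted p = 0.27). These differences are relative to the median enhancer. As boosts over the baselines, 45 single enhancers and all 57 in pairs were lower with *Fgf5* and 0 higher. That direction uses the *Fgf5* baseline from 23 CC combinations, with a mean log2 activity of -2.11. With zeros included this baseline was -3.53, while those of *Sox2* (-2.58), *Lefty1* (-3.56) and *Tbx3* (-3.10) changed little. Differences over baselines with zeros included were not tested. Without *Fgf5* replicate 1, 2 or 3 the single-enhancer calls were 0 higher and 3 lower, 1 higher and 0 lower, and 16 higher and 3 lower. Those in pairs were 5 higher and 0 lower, 0 in either direction (17 at an unadjusted p under 0.05), and 7 higher and 1 lower.

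**Figure D5:**
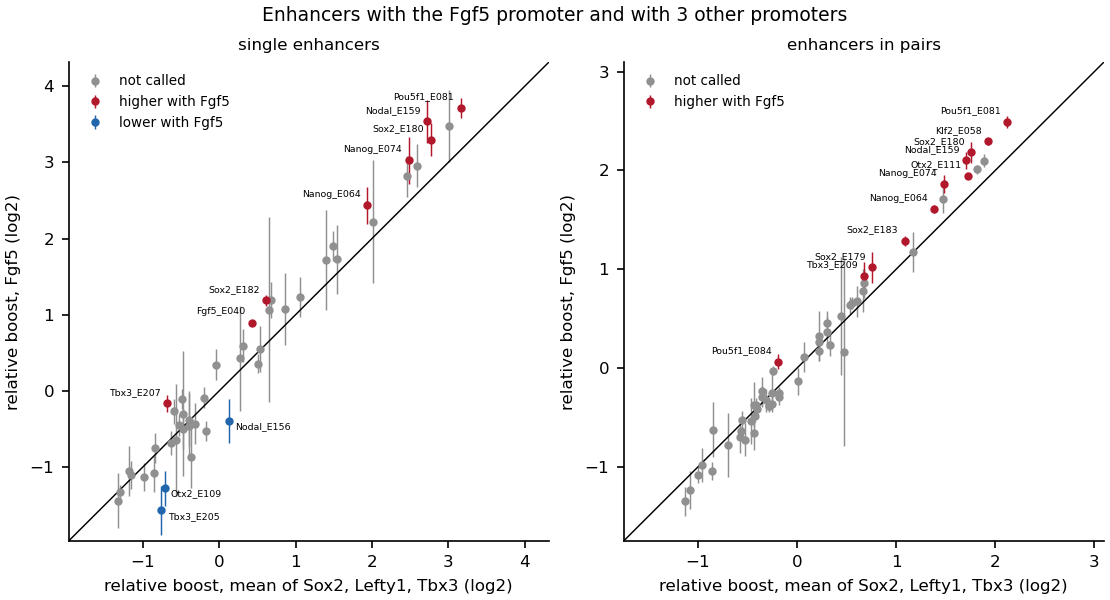
Relative boost (log2, centred on the median of the shared enhancers) with the *Fgf5* promoter against the mean of the *Sox2*, *Lefty1* and *Tbx3* promoters, for single enhancers (left, 47) and enhancers in pairs (right, 57), with the SD of the 3 *Fgf5* replicates and the line of equality. Strong enhancers such as Pou5f1_E081 and Sox2_E180 lie above the line in both panels. That direction turns when boosts over the baselines, which for *Fgf5* rest on 23 CC combinations, are used in place of centred values.

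Over the 6152 shared EE combinations, the 10th to 90th percentile range of log2 activity was 3.97, 3.92 and 4.07 in the *Fgf5* replicates. It was 2.97 to 3.14 with *Sox2*, 3.58 to 3.79 with *Lefty1* and 3.07 to 3.44 with *Tbx3*, so all 3 *Fgf5* replicates had the wider range. The slope of *Fgf5* log2 activity on the mean of the other 3 promoters was 1.17, 1.16 and 1.14. The same slope for each of the others on the remaining 3 was 0.79 to 0.86 for *Sox2*, 1.04 to 1.10 for *Lefty1* and 0.84 to 0.96 for *Tbx3*. These are descriptions over combinations that share fragments and were not tested.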

How the data were processed

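The table that the authors deposited gives, for each combination and biological replicate, an activity that is the ratio of cDNA to pDNA barcode counts, each normalised to its library total and averaged over barcodes, with a minimum number of barcodes per combination. The labels name Bowtie2 and mm10. Its columns of boost and additivity estimates by the authors were not used, and 0 other columns of per-sample values were left out. Promoters and replicates came from the labels. Libraries were transfected and normalised separately, so activities set side by side across libraries were not tested, and tests between promoters used centred boosts.

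Tests over 3 replicates used limma 3.58.1 in R 4.3.3, and all other values came from pandas 2.3.3, scipy 1.17.1 and numpy 2.4.6 under Python 3.11.15. Combinations above 0 in all replicates were used, with no pseudocount. At least 3 EC or 5 EE combinations per enhancer were needed. One-group fits were made within each library and adjusted by Benjamini-Hochberg over all 8 libraries. Contrasts between promoters used weights per promoter. Each adjusted p-value was called below 0.05. The fits were tested on simulated data with independent noise for each enhancer. Those data lack the baseline shift that enhancers of a replicate share, so they cannot show how it affects the calls. The p-values measure the spread between transfections. Alternatives varied the baseline, replicates, minimum counts, expectation and centring.

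Enhancers were named by rule: the locus of *Fgf5*, the 8 highest and 5 lowest boosts, those the study follows, the largest called differences and deviations, the extreme pairs, sparse enhancers and those most often at 0. Others were named after their values were seen. Members and lists were chosen with earlier results of these data known, and the fold of an activity is the antilog of its mean boost. Fragment coordinates and primers are from the study's supplementary tables, promoter windows and genes from RefSeq.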

Additional observations from a re-analysis of the deposited data

Results flagged for a closer look

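Differences between the *Fgf5* promoter and the mean of the *Sox2*, *Lefty1* and *Tbx3* promoters, tested as a contrast in limma on relative boosts, singled out the following enhancers. As single enhancers, Nodal_E159 (0.82), Sox2_E182 (0.57), Pou5f1_E081 (0.55), Nanog_E074 (0.55), Sox2_E180 (0.53), Tbx3_E207 (0.51), Nanog_E064 (0.49) and Fgf5_E040 (0.47) were higher with *Fgf5*. Tbx3_E205 (-0.81), Otx2_E109 (-0.56) and Nodal_E156 (-0.52) were lower.

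In pairs, the differences were 0.42 for Sox2_E180, 0.40 for Nodal_E159, 0.38 for Nanog_E074, 0.38 for Pou5f1_E081, 0.37 for Klf2_E058, 0.26 for Sox2_E179, 0.22 for Nanog_E064 and 0.22 for Otx2_E111. The share of combinations at 0 differs between these libraries, and its part in the differences was not tested.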

How the results depend on the processing

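Of 463 values for named enhancers under the alternatives, 376 kept the side of the threshold, and those called also kept their direction. These were 236 of 261 single-enhancer boosts and 45 of 50 deviations from the additive expectation. Differences between promoters held less often, 52 of 88 for single enhancers and 43 of 64 in pairs. Without *Fgf5* replicate 2, 18 of these differences lost their call and 1 kept it. Values that were not called could change sign and still count among the 376. The boost of Nodal_E156, for example, moved from -0.12 to 0.36 without replicate 2. With all CC combinations as baseline, zeros included, an alternative chosen after seeing the data, 34 single enhancers were above and 0 below, the median boosts were 1.99 (EC) and 3.74 (EE), and 19 enhancers and 205 pairs were above the additive expectation. The boosts of Nodal_E157 (0.36), Otx2_E109 (0.41), Otx2_E110 (0.31), Pou5f1_E077 (0.47) and Tbx3_E205 (0.12) then turned positive. That alternative still left combinations at 0 out of the enhancer medians. Keeping them there, with the main baseline, gave 20 single enhancers above and 11 below. With controls above 0 in the same replicate alone, 5 were below and the median EC boost was 0.82. The exact rank-sum test over combinations at a 1% FDR called 19 above and 4 below, of 51 enhancers without a minimum of combinations. It takes combinations as independent although they share fragments and transfections, so its p-values do not measure the spread between replicates. A baseline of 0 in the expectation of the *Fgf5* library left 9 enhancers and 131 pairs above, with 6 and 128 below. The multiplicative expectation gave 642 pairs above and 152 below. With a baseline without E6-shuffled2, also chosen after seeing the data, every count stayed within 1.5 times.

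Leaving out each replicate in turn gave 0 to 10 single enhancers below the baseline, 35 to 301 pairs above the expectation, 1 to 4 position calls and 0 to 6 orientation calls. It gave 1 to 19 single-enhancer differences between promoters and 0 to 8 in pairs. No minimum of combinations gave 5 orientation calls.

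For the differences between promoters, boosts that were not centred gave 45 single enhancers and 57 in pairs, all lower, and reversed Nodal_E159 (-0.46), Sox2_E182 (-0.71), Pou5f1_E081 (-0.73), Nanog_E074 (-0.73), Sox2_E180 (-0.76), Tbx3_E207 (-0.77), Nanog_E064 (-0.79) and Fgf5_E040 (-0.81), and in pairs Sox2_E180 (-0.63), Nodal_E159 (-0.65), Nanog_E074 (-0.67), Pou5f1_E081 (-0.68), Klf2_E058 (-0.69), Sox2_E179 (-0.79), Nanog_E064 (-0.83) and Otx2_E111 (-0.83). Boosts that are not centred depend on the baseline of each library, which for *Fgf5* rests on the 23 CC combinations above 0. Unmatched combinations gave 3 single-enhancer calls (1 higher, 2 lower) and 18 in pairs (17 and 1), no weights 17 single-enhancer calls (12 and 5), and all 6 other developmental promoters 28 (19 and 9) and 36 (22 and 14). With the replicate number as a block, 19 (14 and 5) and 23 (18 and 5) were called, so that 0 lower in pairs does not hold there. Same-numbered replicates of *Fgf5* and the other libraries correlated over 0.1 in 7 of 9 pairs (from -0.01 to 0.76), all 3 with *Lefty1* among them, and 7 of 9 correlated best with their own number, a hint from the data and not from the design. As not every pair was over 0.1, the block was kept as an alternative. The causes were not tested.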

Other observations

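Some combinations of Nodal_E160 in position 1, chosen after their values were seen, were far above both single enhancers. In minus orientation with Otx2_E109 in plus orientation, activities with *Fgf5* were 3.23, 3.02 and 3.77. The same combination gave 1.08, 2.11 and 1.55 with *Lefty1* and 0.392, 0.156 and 0.126 with *Sox2*. With Otx2_E110 in plus orientation, activities were 1.93, 2.16 and 1.63 with *Fgf5*, 1.57, 1.21 and 1.10 with *Lefty1* and 1.01, 0.728 and 0.842 with *Tbx3*, while Otx2_E110 in minus orientation gave 0.227, 0 and 0.531 with *Fgf5*. With Pou5f1_E078, both in minus orientation, they were 5.92, 0.645 and 3.85 with *Fgf5* and 2.56, 1.97 and 2.14 with *Lefty1*. Each is a single combination whose number of barcodes is unknown here, and activities of different libraries were normalised separately, so these differences were not tested.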
